A study of Homo sapiens with 24 samples.

Results

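The genes described here encode core proteins of the spliceosome, and the data show where on their transcripts 3 RNA-binding proteins were crosslinked. They were taken by symbol from the genes named in 6 deposited lists of enriched windows: the SF3A and SF3B subunits, the PRPF proteins, the SNRP and SNRNP proteins without SNRNP200 itself, the LSM proteins, the U2AF subunits, and SF1, PUF60, CDC5L, AQR, EFTUD2 and SUGP1. The rule found 54 genes of the 9792 that had at least 1 window in any list, and no measured value entered it. Enhanced crosslinking and immunoprecipitation (eCLIP) was performed in HEK293, a human embryonic kidney cell line: protein and RNA are crosslinked, the protein is immunoprecipitated (IP), and its RNA fragments are sequenced beside an input library made without that step. The 24 libraries made 12 groups of 2 replicates, an IP group and an input group for each of 6 experiments. These were SNRNP200 in the cytoplasmic fraction with 500 µM arsenic and untreated, SNRNP200 in whole cells with 500 µM arsenic and untreated, and CAPRIN and G3BP1, both without treatment in the labels' characteristics. The labels used here give no duration of the treatment, and all experiments used the same cell line. The protocols name a single antibody number for the 3 proteins, and the protein in each label was used.

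The spliceosome removes introns from nuclear pre-mRNA and is built from small nuclear RNAs and proteins. Sm and LSM proteins form rings on these RNAs, the U1 proteins mark the 5′ splice site, and SF1, the U2AF subunits and the SF3A and SF3B subunits of the U2 particle select the branch point and the 3′ splice site. The U5 proteins, above all PRPF8, hold the catalytic core, and SNRNP200 is the U5 helicase that separates the U4 and U6 RNAs. The proteins are made in the cytoplasm from ordinary mRNAs, and their pre-mRNAs are themselves spliced. G3BP1 and CAPRIN1 bind each other and are central proteins of stress granules, cytoplasmic assemblies of mRNA and protein that form under stresses such as arsenite.

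A listed window is a stretch of at most 100 bases called enriched in IP over input, at a q under 0.2, in at least 2 replicates. Its value compares IP with input on the log2 scale, corrected for GC content, and the authors give it for the lowest and the highest replicate. The lists held 6773 and 4182 windows for SNRNP200 in the cytoplasm with arsenic and untreated, 117690 and 182066 in whole cells with arsenic and untreated, 15831 for CAPRIN and 3023 for G3BP1. Listed windows of the 54 genes held a median of 22 to 40 IP reads, summed over the replicates. The lists give no RNA level, so more RNA and more binding per RNA cannot be told apart, and a gene missing from a list is not shown to be unbound.

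Several properties of the lists touch the results below. In the 882 windows shared by the arsenic cytoplasm list and the arsenic whole cell list, the input count was identical in 769 (87.2%), and in 37 of the 38 windows that lie in core spliceosome genes. The IP count was identical in 7 of the 882. Between the cytoplasm and whole cell lists of untreated cells the input count was identical in 11 of 651 shared windows (1.69%), and no other pair of lists reached more than 14.4%. In these shared windows the enrichment values of the arsenic cytoplasm list therefore stand on input counts that mostly equal those of whole cells. Windows outside the whole cell list could not be compared in this way. What part this had in the results was not tested. An enrichment of 0 in that list stood for 9.06 input reads per IP read, against 1.01 in the untreated cytoplasm list, 1.58 and 1.63 in the arsenic and untreated whole cell lists, 2.09 for CAPRIN and 3.14 for G3BP1. The G3BP1 list joins a set of entries with up to 2 replicates and a set with up to 3, although the labels give 2 replicates, and 80 of the 81 G3BP1 windows in core spliceosome genes were in the set with up to 3. Windows of SNRPD3 also carry the name of an overlapping gene entry, and U2AF1 and U2AF1L5 are near-identical copies, so reads at these genes are of uncertain origin.

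Core spliceosome genes were found in every list. At least 1 window lay in 26 of the 54 for SNRNP200 in the arsenic cytoplasm, where 25.2% of all 9792 genes were listed, and in 14 in the untreated cytoplasm, where 18.6% of all genes were. In whole cells 52 were listed with arsenic, beside 83.8% of all genes, and 53 untreated, beside 92.4%. CAPRIN windows lay in 39, beside 44.6% of all genes, and G3BP1 windows in 12, beside 12.6%. A fixed list of 66 other spliceosome genes had 16 genes in each cytoplasm list, 66 in each whole cell list, 49 in the CAPRIN list and 9 in the G3BP1 list. Of 38 SR and hnRNP protein genes, 26 were in each cytoplasm list, 35 in the CAPRIN list and 24 in the G3BP1 list. Of 81 cytosolic ribosomal protein genes, 70 were listed in the arsenic and 22 in the untreated cytoplasm, 70 with CAPRIN and 46 with G3BP1. The counts of core spliceosome genes in the short lists depend on the q limit. At a q under 0.05, 9 of them remained in the arsenic cytoplasm, 4 in the untreated cytoplasm and 6 with G3BP1. Shares over all genes were not computed at this limit. With only the entries of up to 2 replicates, 3 genes had a G3BP1 window, beside 8.05% of all genes. The entries with up to 3 replicates held 12, beside 7.40% of all genes.

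**Figure D1:**
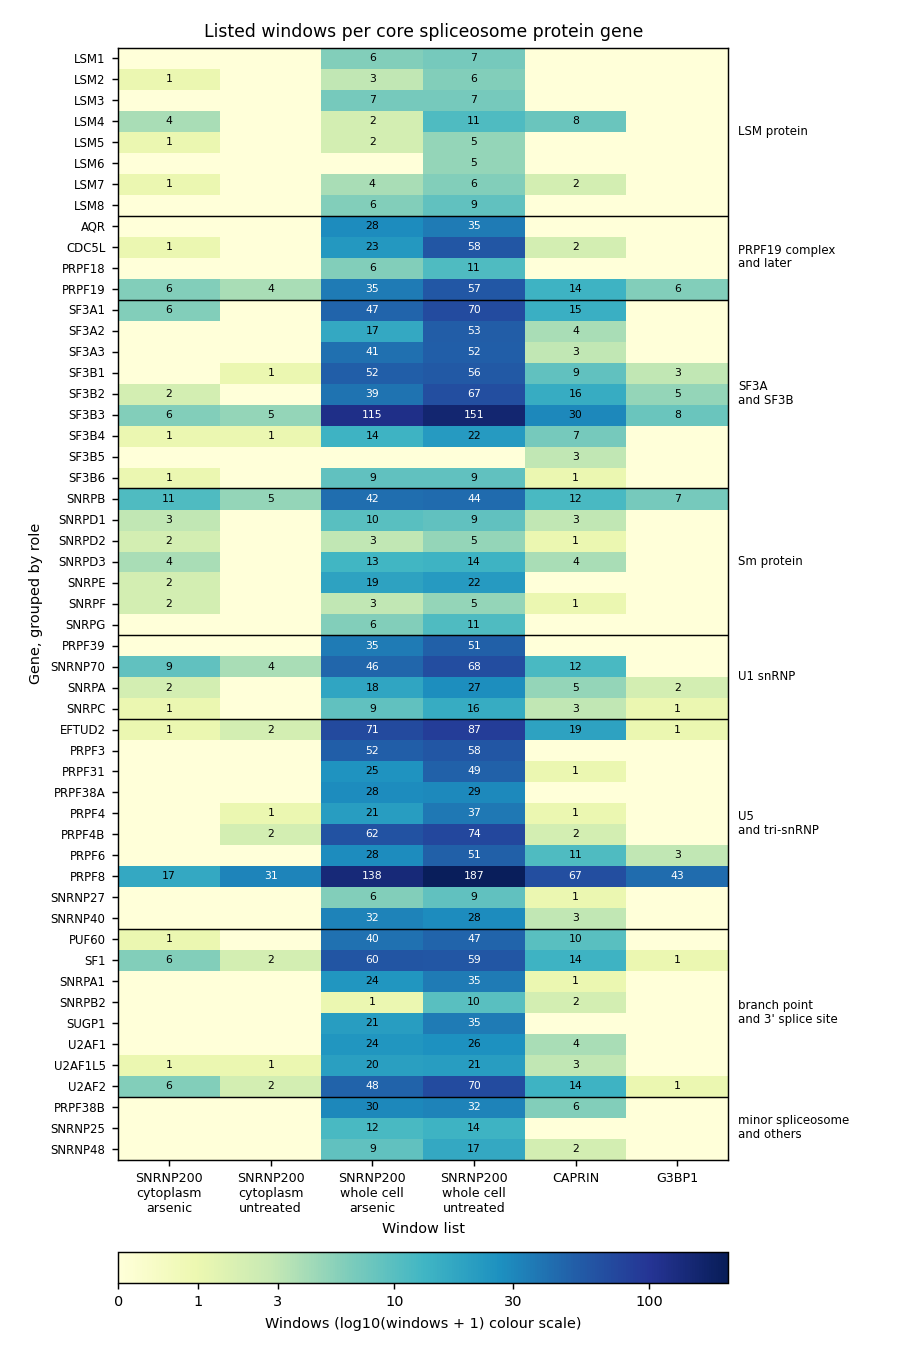
Number of listed windows in each of 53 genes (rows, grouped by role) in each of the 6 lists (columns); empty cells hold no window, and colour follows log10(windows + 1). PRPF8 leads every column, with 17, 31, 138, 187, 67 and 43 windows from left to right, and LSM proteins have no window in the untreated cytoplasm and G3BP1 columns.

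EFTUD2, PRPF19, PRPF8, SF1, SF3B3, SNRPB and U2AF2 had a window in all 6 lists, which is 12.96% of the 54 genes, against 4.33% of all 9792 genes. They come from different parts of the machine: EFTUD2 is the GTPase of the U5 particle, PRPF19 a ubiquitin ligase, SF3B3 a scaffold of SF3B, SNRPB an Sm protein, and SF1 and U2AF2 read the branch point and the polypyrimidine tract. At the other end, LSM6 was listed only in untreated whole cells, with 5 windows, and SF3B5, the smallest SF3B subunit, only with CAPRIN, with 3 windows that all lay in the 3′ UTR. PRPF3, PRPF18, PRPF38A, PRPF39, AQR, SNRPG, SNRNP25, SUGP1, LSM1, LSM3 and LSM8 were listed in both whole cell lists and nowhere else.

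By role the counts were as follows, to be read against the 25.2% and 18.6% of all genes in the arsenic and untreated cytoplasm lists, 44.6% with CAPRIN and 12.6% with G3BP1; differences between roles were not tested. Of the 7 Sm protein genes, 6 had a window in the arsenic cytoplasm, 1 in the untreated cytoplasm, 5 with CAPRIN and 1 with G3BP1. Of the 9 SF3A and SF3B genes, 5 and 3 were listed in the arsenic and untreated cytoplasm, 9 with CAPRIN and 3 with G3BP1. Of the 10 U5 and tri-snRNP genes, 2 and 4 were listed in the arsenic and untreated cytoplasm, 8 with CAPRIN and 3 with G3BP1. The 5 U1 genes gave 3, 2, 4 and 2 in the same order, and the 8 genes of branch point and 3′ splice site recognition 4, 3, 7 and 2. The 8 LSM genes gave 4, 0, 2 and 0. The 4 genes of the PRPF19 complex and later steps gave 2, 1, 2 and 1. The 3 genes of the minor spliceosome and others gave 0, 0, 2 and 0.

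The windows lay on different parts of the transcript in whole cells and elsewhere. For SNRNP200 in whole cells, 40.5% of the windows of core spliceosome genes with arsenic lay in an intron at a splice site (606 of 1496, exact 95% interval 38.0 to 43.0%) and 35.0% untreated (713 of 2038, 32.9 to 37.1%). All other windows gave 41.0% and 35.7%, and both lie within the intervals of the core spliceosome genes. Introns further from the splice site but still near it held 12.2% of their windows with arsenic and 16.7% untreated, against 8.80% and 10.8% of the other windows. In the cytoplasm, CAPRIN and G3BP1 lists no window of these genes lay in an intron at a splice site, and a single CAPRIN window lay in an intron at all. Intervals cover counting error only, and neighbouring windows share reads. The share at splice sites depends on which windows are counted: it was 10.7% with arsenic and 12.4% untreated among windows with at least 20 IP and 10 input reads.

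**Figure D2:**
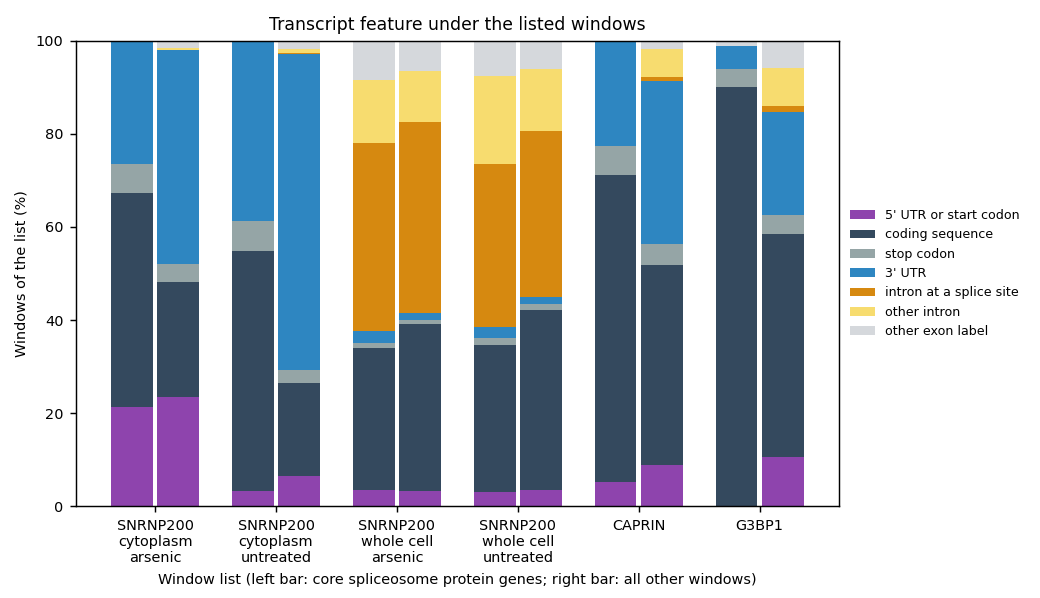
Share of listed windows (%) by the transcript feature the authors assigned, for core spliceosome protein genes (left bar of each pair) and all other windows (right bar), in the 6 lists. Windows in coding sequence make up 90.1% of the left bar against 47.9% of the right bar for G3BP1, and introns at a splice site appear at this height only in the whole cell lists.

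Outside whole cells the windows of core spliceosome genes lay in coding sequence more often than other windows did. With G3BP1 the share was 90.1% (73 of 81, 81.5 to 95.6%), against 47.9% of the other windows, and with CAPRIN 65.9% (211 of 320, 60.5 to 71.1%) against 43.0%. For SNRNP200 it was 45.9% against 24.7% in the arsenic cytoplasm, and 51.6% against 19.8% in the untreated cytoplasm. A single gene carried part of this. Without PRPF8 the shares were 84.2% with G3BP1, 58.9% with CAPRIN, 37.0% in the arsenic cytoplasm and 16.1% in the untreated cytoplasm, and the last of these no longer exceeded the other windows. With 1 window per gene, that with most IP reads, the CAPRIN share was 35.9%. The other genes were not reduced to 1 window each, so this share cannot be set against theirs. The 3′ UTR held 26.5% of the windows in the arsenic cytoplasm and 38.7% in the untreated cytoplasm, against 45.8% and 68.0% of the other windows, and without PRPF8 32.1% and 71.0%.

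PRPF8, the largest protein of the catalytic core, had more windows than any other core spliceosome gene in every list. By number of windows it ranked 12 of 2472 genes in the arsenic cytoplasm, 2 of 1818 in the untreated cytoplasm, 19 of 8202 and 14 of 9052 in arsenic and untreated whole cells, 3 of 4363 with CAPRIN and 3 of 1232 with G3BP1. Coding sequence held 15 of 17 windows in the arsenic cytoplasm and 27 of 31 in the untreated cytoplasm, 62 of 67 with CAPRIN and 41 of 43 with G3BP1, but 49 of 138 and 78 of 187 in arsenic and untreated whole cells. All 43 G3BP1 windows came from the set with up to 3 replicates, and 18 of them were called in 3. The median enrichment of its windows was 4.27 on the log2 scale in the arsenic cytoplasm and 2.82 in the untreated cytoplasm, 3.57 and 3.51 in arsenic and untreated whole cells, 3.41 with CAPRIN and 3.15 with G3BP1.

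The same PRPF8 windows returned in different experiments. CAPRIN and G3BP1 shared 37 of their 67 and 43 windows in this gene. Of the 31 untreated cytoplasm windows of SNRNP200, 27 were also CAPRIN windows and 19 also G3BP1 windows, and of the 17 arsenic cytoplasm windows 15 and 13 were. Over all genes, 1371 of the 4182 untreated cytoplasm windows were also CAPRIN windows and 418 also G3BP1 windows. For the 6773 arsenic cytoplasm windows the counts were 2399 and 751. In PRPF8 both cytoplasm lists shared 6. No list had a window between 11.8 and 22.7 kb from the start of the gene. Of the 16 windows that stood in all 6 lists over the whole transcriptome, 3 lay in PRPF8 coding sequence.

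**Figure D3:**
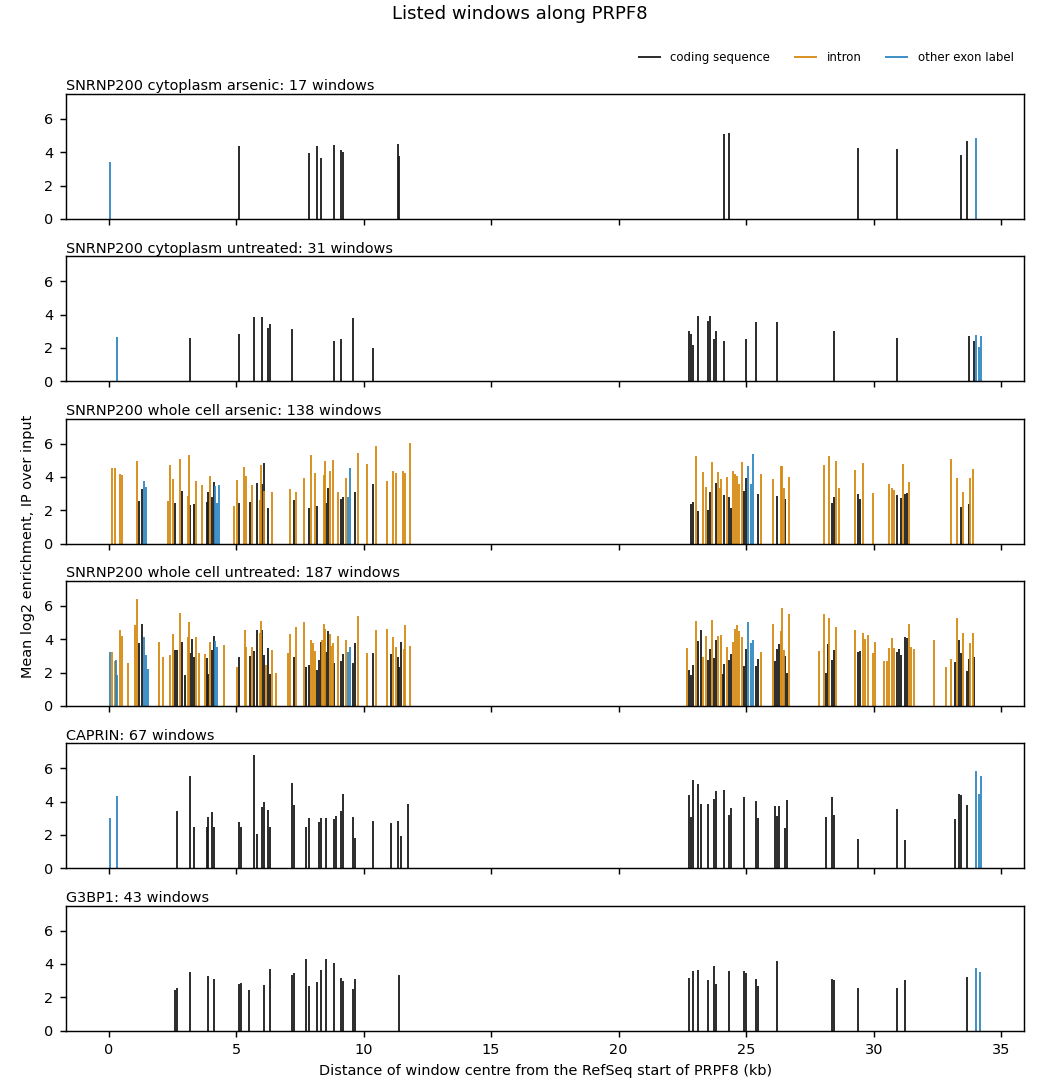
Mean log2 enrichment of IP over input (height) of every listed window of PRPF8 against the distance of its centre from the RefSeq start of the gene (kb), 1 panel per list, coloured by transcript feature. Intron windows fill the whole cell panels, while the 17, 31, 67 and 43 windows of the cytoplasm, CAPRIN and G3BP1 panels lie on exons, with none between 11.8 and 22.7 kb.

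The window at chr17:1675716-1675812 (hg38, coding sequence) shows the levels. Its replicates had enrichments of 3.48 and 4.82 in the arsenic cytoplasm, against 2.31 and 2.71 in the untreated cytoplasm. They were 2.12 and 3.23 in arsenic whole cells, against 2.66 and 2.72 in untreated whole cells. CAPRIN gave 3.26 and 3.55, and G3BP1 2.83 and 3.47 as its lowest and highest. The arsenic cytoplasm replicates stood above those of the untreated cytoplasm, and those of whole cells overlapped. The IP reads behind these values were 52 and 56 in the arsenic and untreated cytoplasm and 130 and 176 in arsenic and untreated whole cells, and the input reads 28 and 11, and 28 and 46. The windows at chr17:1653937-1654016 and chr17:1679704-1679799 were the other two, with mean enrichments of 4.21 and 4.39 in the arsenic cytoplasm, against 2.62 and 2.82 in the untreated cytoplasm.

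The comparison of arsenic with untreated whole cells asks whether SNRNP200 contacts on these transcripts differed under stress. The same genes were listed: 52 in both lists, none with arsenic alone (2.45% of the 9279 genes in either list) and LSM6 alone untreated (11.6%). Fewer windows were listed with arsenic in 48 genes, more in SNRNP40, SF1 and SNRPD1, and equally many in LSM3 and SF3B6. The median ratio of windows, arsenic over untreated, was 0.686 over the 52 genes and 0.625 over all 7975 genes in both lists. The 1310 windows shared made up 87.6% of the arsenic and 64.3% of the untreated windows of these genes, against 77.4% and 50.1% over all windows.

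The ratio of windows differed between genes, with quartiles of 0.412 and 0.870 over all 7975 genes. Over the 52 core spliceosome genes the quartiles were 0.578 and 0.894. Below the lower quartile over all genes lay SNRPB2, LSM4, SF3A2, CDC5L and LSM5. Above the upper one lay SNRPB, SF1 and further genes, among them SNRNP40, SNRPD1, PRPF38A, SF3B1, U2AF1 and PRPF3. PRPF31, PRPF8 and SF3B3 lay between the quartiles over all genes. SNRPB2, a U2 protein, had 1 window with arsenic and 10 untreated, and LSM4, of the ring on U6, 2 and 11. SF3A2, an SF3A subunit, had 17 and 53, and CDC5L, a scaffold of the PRPF19 complex, 23 and 58. In CDC5L introns at a splice site accounted for 3 of the windows with arsenic and 22 of those untreated. PRPF31, which binds the U4 RNA, had 25 and 49. PRPF8 had 138 and 187, SF3B3 115 and 151, SNRPB 42 and 44, and SF1 60 and 59.

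The enrichment itself was compared in 1 window per gene, the shared window with most IP reads, with limma fitted over all 7408 genes and Benjamini-Hochberg adjustment. None of the 51 core spliceosome genes passed an adjusted p of 0.05 (0.0% of all genes did), and 3 had an unadjusted p under 0.05, beside 3.83% of all genes. The median difference, arsenic minus untreated, was -0.24 on the log2 scale over the 51 genes and 0.10 over all genes, and with the mean over all shared windows of a gene it was 0.03. Replicates with arsenic lay wholly above the untreated ones in 7 genes, beside 16.9% of all genes, and wholly below in 9, beside 15.2%.

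SUGP1, a partner of SF3B1 in branch point selection, stood furthest up. In its coding window at chr19:19305849-19305924 the replicates had log2 enrichments of 5.85 and 6.15 with arsenic and 1.85 and 3.33 untreated, a difference of 3.41 ± 0.88 (SE; limma adjusted p = 0.99). Its IP reads were 82 with arsenic and 63 untreated, and its input reads 0 and 5, so the difference rests on few input reads. SNRNP48, a protein of the minor spliceosome, stood furthest down, with 2.32 and 4.40 with arsenic and 5.73 and 6.35 untreated, and input reads of 5 and 1. PRPF6, a bridge between U5 and the U4/U6 particle, had 2.30 and 3.21 with arsenic and 4.01 and 5.54 untreated. The replicate ranges did not overlap in these 3 genes. Next came LSM8, SF3A3, PRPF18 and LSM1, which belongs to the LSM ring of cytoplasmic mRNA decay, on the higher side, with differences of 1.85, 1.46, 1.37 and 1.24, and PRPF38A, SF3B2 and SNRNP27 on the lower side, with -1.42, -1.28 and -1.20, and none of these passed the test.

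**Figure D4:**
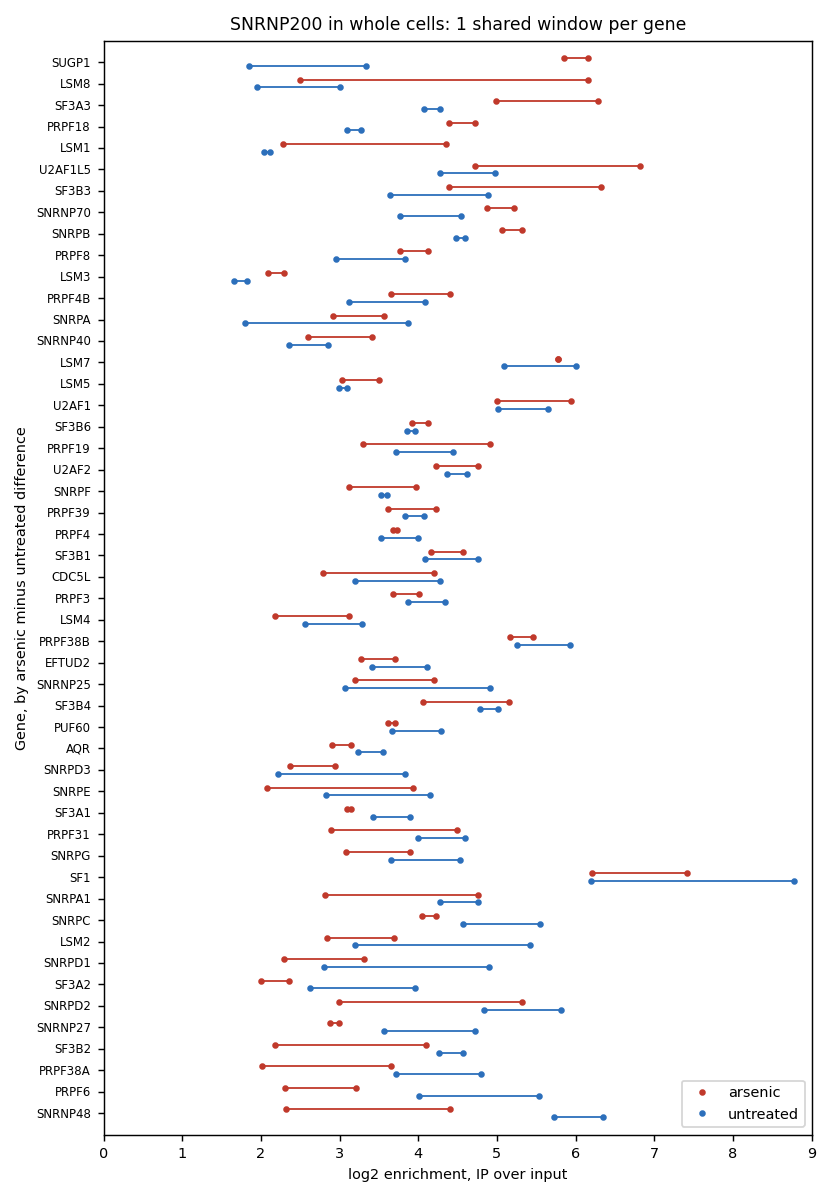
log2 enrichment of SNRNP200 IP over input in whole cells in 1 shared window for each of 50 genes, ordered by the difference; points are the 2 replicates with arsenic (red) and untreated (blue), joined by a line. The ranges overlap in 34 of the 50 genes; SUGP1 and SNRNP48 at the ends differ by 3.41 and -2.68.

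The highest enrichments in whole cells lay in SF1, with and without arsenic. The intron window at a 5′ splice site at chr11:64767471-64767570 had replicates of 6.21 and 7.41 with arsenic, from 408 IP and 5 input reads, and 6.20 and 8.78 untreated, from 451 and 4. The 2 groups overlapped, and the difference was -0.68 ± 0.99 (SE; limma adjusted p = 0.99). The neighbouring window at a 3′ splice site, chr11:64767845-64767944, had 7.24 and 7.48 with arsenic, from 131 IP reads and no input read. Where a window has no input read, its enrichment depends on how the authors' caller treats 0. Further high windows lay at splice sites of SNRPE (mean 6.76, arsenic), SF3B2 (6.51, arsenic) and PRPF19 (6.73, untreated).

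In the cytoplasm most of the genes were listed either with arsenic or untreated. Of the 30 genes in either list, 16 were listed with arsenic alone (42.9% of the 3182 genes in either list), 4 untreated alone (22.3%) and 10 in both. Those with arsenic alone were led by SF3A1 (6 windows), LSM4 and SNRPD3 (4 each), SNRPD1 (3), and SNRPF and SNRPE (2 each); SNRPD1, SNRPD2, SNRPD3, SNRPE and SNRPF are Sm proteins. Those untreated alone included SF3B1, PRPF4 and PRPF4B, with 1 to 2 windows in the 3′ UTR each. With both lists at equal length the counts were 13 and 6. At a q under 0.05 they were 5 and 0. Shares over all genes were not computed at these settings, so the counts cannot be set against them. PRPF8 had 17 windows with arsenic and 31 untreated, SNRPB 11 and 5, SNRNP70, the U1 protein that binds the U1 RNA directly, 9 and 4, and SF3B3 6 and 5.

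In the cytoplasm, windows in the 5′ UTR were listed mainly with arsenic. Of the cytoplasm windows in core spliceosome genes, 18.4% lay in the 5′ UTR with arsenic (18 of 98, exact 95% interval 11.3 to 27.5%) and 1.61% untreated (1 of 62, 0.0408 to 8.66%). The other cytoplasm windows gave 17.5% with arsenic and 5.0% untreated. In whole cells 20 of the 1496 windows of core spliceosome genes lay in the 5′ UTR with arsenic and 29 of 2038 untreated. Input counts of the arsenic list mostly equal those of whole cells in shared windows, but they were not compared for the 5′ UTR windows as a set. Their part in this difference was not tested. Sm protein genes held 8 of these 18. The first bases of 5 RefSeq entries (GRCh38.p14) are shown because arsenic cytoplasm windows covered them. The windows of SNRPF and SNRNP70 begin upstream of these bases, at chr12:95858928 and chr19:49085423, so the first base is that of the RefSeq entry. Windows also covered the first bases of LSM4, PRPF19, SF1 and SF3A1, which are not shown. Bases are read in the direction of transcription, and capitals mark an unbroken run of C or T from the first base of the entry.
SNRPF, chr12:95858952-95858981, plus strand: CTgtttggcggccatttctcttgaaactgc
SNRPD3, chr22:24555999-24556028, plus strand: attcgcttgactcacgccttcgccgtagca
SNRNP70, chr19:49085451-49085480, plus strand: agtcgctatcggaggccgcgcgggtggctg
SF3B6, chr2:24076297-24076326, minus strand: gttgatgtcctgcatctaacgcggtgtaac
PRPF8, chr17:1684838-1684867, minus strand: acttcccggcgctgggaacgcggagcggac
SNRPF alone starts with such a run, of 2 bases. Of the 52 promoter entries of core spliceosome genes, 6 (11.5%) start with a run of at least 4 such bases, against 7.19% of all 35097 entries. The SNRPF window had enrichments of 3.77 and 6.51 from 71 IP and 24 input reads, and that of SNRPD3 4.40 and 4.45 from 47 and 16. SF3B6 had 3.13 and 4.72, SNRNP70 2.49 and 3.28, and PRPF8 2.90 and 3.92. The 2 replicates of SNRPF differed by more than those of any other gene in this set of 5.

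In 17 of the 18 windows shared by the cytoplasm lists the mean enrichment was higher with arsenic, beside 96.5% of all 1065 shared windows. The IP count was lower with arsenic in 9 of the 18 and higher in 9. The 18 windows lay in 8 genes, and the highest-count window of each was a 3′ UTR window in 7. In the SF3B3 window at chr16:70572111-70572209 the replicates had 4.59 and 7.16 with arsenic and 2.13 and 3.57 untreated, a difference of 3.02 ± 1.26 (SE; limma adjusted p = 0.15). In SF1 they had 3.72 and 6.61 with arsenic and 1.23 and 2.76 untreated, a difference of 3.17 ± 1.29 (SE; limma adjusted p = 0.15). All replicates with arsenic lay above all untreated ones in 7 of the 8 genes, beside 70.9% of all genes, with PRPF19 as the exception, and none lay wholly below, beside 1.05% of all genes. None of the 8 passed the test with limma over 669 genes (0.0% of all genes passed), and 4 had an unadjusted p under 0.05, beside 29.3% of all genes. With a variance trend U2AF2 passed (2.73 ± 0.83, SE; limma adjusted p = 0.022), and among windows at a q under 0.05 SF3B3 did (limma adjusted p = 0.038). The median difference was 2.62 over the 8 genes and 2.02 over all genes.

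In the highest-count windows the IP reads were fewer with arsenic in 6 of the 8 genes: 128 with arsenic and 145 untreated in SF3B3, 55 and 84 in SF1, 192 and 312 in U2AF2, 58 and 135 in SNRPB, 118 and 142 in PRPF8, and 58 and 82 in PRPF19. They were more in SF3B4 (54 and 48) and SNRNP70 (63 and 50). Over the 18 shared windows the median log2 ratio of IP reads, arsenic over untreated, was -0.04, and over all 1065 shared windows -0.22. The baseline of 9.06 input reads per IP read in the arsenic cytoplasm list was computed from the deposited enrichments and counts. It is therefore not an observation separate from the higher enrichment. In the 18 shared windows the median input count was 20 with arsenic and 8 untreated. Input counts of the arsenic cytoplasm list mostly equal those of whole cells in the windows that both of these lists share. The part of the baseline and the input counts in the higher enrichment was not tested. With the median difference over all genes removed, the median over the 8 genes was 0.61.

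**Figure D5:**
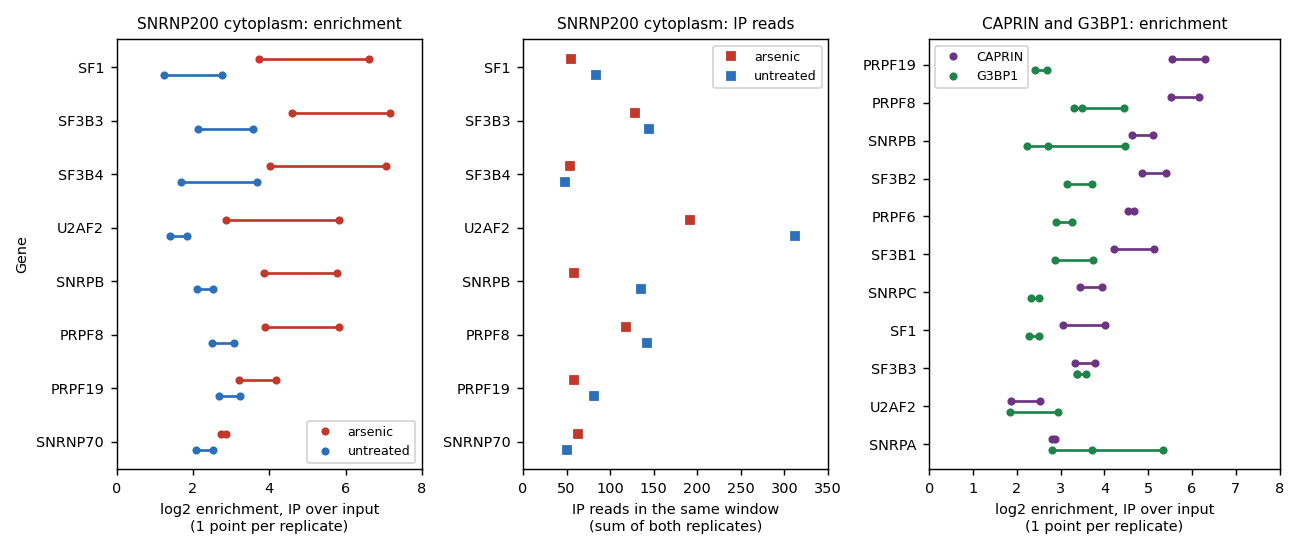
Left, log2 enrichment of SNRNP200 in the cytoplasm with arsenic (red) and untreated (blue) in 1 shared window for each of 8 genes, 1 point per replicate; middle, IP reads in the same windows, summed over both replicates. Right, log2 enrichment with CAPRIN (purple) and G3BP1 (green, entries with up to 3 replicates) in 1 shared window for each of 11 genes; CAPRIN lies wholly above G3BP1 in 8 of them.

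Every core spliceosome gene with a cytoplasm window also had a whole cell window. Untreated, all 14 genes of the cytoplasm list were also in the whole cell list, so that none was in the cytoplasm list alone (1.17% of the 9159 genes in either list), and 39 were in the whole cell list alone (80.2%). With arsenic, all 26 were, none was in the cytoplasm list alone (2.7% of the 8430 genes in either list), and 26 were in the whole cell list alone (70.7%). The whole cell lists are far longer: with lists of equal length, 1 gene was in the cytoplasm list alone and 15 in the whole cell list alone untreated, and 12 and 13 with arsenic. At equal length the shares over all genes were not computed. Untreated, 37 of the 62 cytoplasm windows (59.7%) were also whole cell windows, against 15.6% over all genes, and with arsenic 38 of 98 (38.8%) against 13.02%. PRPF8 supplied 27 of the 37 and 10 of the 38.

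No core spliceosome gene passed the test between cytoplasm and whole cells. Untreated, 0 of 6 genes passed with limma over 390 genes (0.0% of all genes passed), 0 had an unadjusted p under 0.05, beside 16.7% of all genes, and the median difference was 0.37, against 0.12 over all genes. EFTUD2 stood furthest up, at its stop codon, with 3.84 and 4.28 in the cytoplasm and 2.80 and 2.89 in whole cells. The difference was 1.21 ± 0.52 (SE, limma adjusted p = 0.28). This window held 15 IP and 0 input reads in the cytoplasm, and 51 and 11 in whole cells. Without an input read, the cytoplasm value depends on how the authors' caller treats 0. With arsenic, 0 of 14 passed over 527 genes (0.0% of all genes passed), 2 had an unadjusted p under 0.05, beside 17.8% of all genes, and the median difference was 1.35, against 1.31 over all genes. SNRPE, in a 5′ UTR window, had 4.201 and 5.40 in the cytoplasm and 1.96 and 2.10 in whole cells, from 44 and 40 IP reads over an identical input count of 14.

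A single window of SNRNP70 was lower in the cytoplasm with arsenic. In 4 of its 5 shared windows enrichment was higher there, beside 93.8% of all 882 shared windows. The exception, its coding window at chr19:49101390-49101471, had 3.08 and 3.40 in the cytoplasm and 4.88 and 5.22 in whole cells, from 28 and 633 IP reads over an identical input count of 27, and the replicates did not overlap. The difference was -1.81 ± 0.85 (SE; limma adjusted p = 0.26), and 12 of all 527 genes (2.28%) had cytoplasm replicates wholly below those of whole cells. The arsenic effect in the cytoplasm was set against that in whole cells in the 3 genes with a window shared by all 4 SNRNP200 lists, and none of them passed with limma over 68 genes (0.0% of all genes passed; 0 of the 3 had an unadjusted p under 0.05, beside 30.9% of all genes). The interaction was 2.14 ± 1.47 in SNRPB, 1.66 ± 1.47 in PRPF8 and -0.17 ± 1.47 in SNRNP70 (SE; limma adjusted p of 0.23, 0.34 and 0.91).

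CAPRIN and G3BP1, the stress granule pair, were compared in libraries whose labels name no treatment. All 12 genes with a G3BP1 window also had a CAPRIN window, none was listed with G3BP1 alone (6.03% of the 4643 genes in either list), and 27 were listed with CAPRIN alone (73.5%). Those 27 were led by SF3A1 with 15 windows, SNRNP70 with 12, PUF60, which binds the polypyrimidine tract beside U2AF2, with 10, LSM4 with 8, SF3B4 with 7 and PRPF38B with 6. The CAPRIN list is the longer, and with both lists at equal length 10 genes were in the CAPRIN list alone. The share over all genes at that length was not computed. The 66 windows shared made up 20.6% of the CAPRIN and 81.5% of the G3BP1 windows of these genes, against 10.7% and 55.8% over all windows. PRPF8 gave 37 of the 66, SNRPB 7 of its 7 G3BP1 windows, and PRPF19, SF3B2 and SF3B3 5 each.

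CAPRIN reached its highest enrichment in 3′ UTRs. The SF3B3 window at chr16:70571814-70571912 had replicates of 7.63 and 7.96 from 321 IP and 2 input reads, and the SNRPB window at chr20:2461861-2461928 had 6.63 and 7.34 from 120 and 0. In PRPF19 the window at chr11:60890723-60890811 had 6.44 and 6.94 from 285 IP and 8 input reads, and that of SNRPD3 at chr22:24572062-24572158 6.09 and 7.04 from 41 and 0. Among the 5 highest CAPRIN windows of these genes 1 lay in coding sequence, that of PRPF8 at chr17:1679112-1679206 with 6.47 and 7.09. G3BP1 differed in this respect, since its 5 highest windows lay in coding sequence, 1 in PRPF19 and 4 in PRPF8, with mean enrichments of 4.06 to 4.69.

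Only PRPF19 and SNRPB could be compared in the G3BP1 entries with up to 2 replicates. In the 3′ UTR window of PRPF19 the replicates had 6.44 and 6.94 with CAPRIN and 2.82 and 4.73 with G3BP1, a difference of 2.91 ± 0.70 (SE; limma over 367 genes, adjusted p = 0.020), and the groups did not overlap. In the coding window of SNRPB at chr20:2463823-2463899 they had 4.62 and 5.10 with CAPRIN and 3.25 and 3.89 with G3BP1, a difference of 1.29 ± 0.54 (SE; limma adjusted p = 0.11). So 1 of 2 genes passed, beside 30.2% of all genes, with PRPF19 higher for CAPRIN; over all genes the median difference was -0.47.

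The set with up to 3 replicates, used after its share of these windows was known, allowed 11 genes. Of these, 5 passed with limma over 414 genes, beside 44.0% of all genes. All 5 were higher with CAPRIN, and over all genes 177 calls were higher with CAPRIN and 5 lower. In PRPF19, in the next window at chr11:60890812-60890899, the replicates had 5.55 and 6.31 with CAPRIN and 2.42 and 2.68 with G3BP1, a difference of 3.38 ± 0.50 (SE). PRPF8, at its stop codon, had 5.51 and 6.16 with CAPRIN and 3.31, 3.49 and 4.45 with G3BP1, a difference of 2.09 ± 0.49 (SE; limma adjusted p = 0.0049). SNRPB, SF3B2 and PRPF6 followed with differences of 1.72, 1.70 and 1.53. With CAPRIN the windows of SF3B2 (32 IP reads) and PRPF6 (14 IP reads) held 0 input reads. Their CAPRIN values thus depend on how the authors' caller treats 0. CAPRIN replicates lay wholly above those of G3BP1 in 8 of the 11 genes, beside 62.8% of all genes, while SF3B3, U2AF2 and SNRPA overlapped; SNRPA had a difference of -1.11 ± 0.64 (SE; limma adjusted p = 0.18). The median difference was 1.37 over the 11 genes and 1.14 over all genes in this set. Over all genes in the entries with up to 2 replicates, a different set of windows, it was -0.47. The reason for this contrast was not tested. In 7 of the 11 windows the G3BP1 values come only from the 2 replicates in which the window was called.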

How the data were processed

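eCLIP libraries of HEK293 cells, 2 replicates of input and of IP for each of 6 experiments, were grouped by the protein, fraction and treatment in the labels; nothing says that replicates came from separate cultures, so p-values measure the spread between these libraries. Per the submitters' processing notes, the tools were fastp 0.11.5 (read trimming) and STAR 2.7.6 (alignment), with hg38 as the genome build. The window caller is not named in these notes or the labels. Each of the 6 deposited lists lacks a header, and what a column holds was inferred from its values. The authors deposited raw read counts, summed over the replicates of a window. Their deposited log2 enrichments compare IP with input within a GC class and are given as lowest, mean and highest replicate. Their deposited p-values and q-values come as maximum and minimum. GC content was deposited as a fraction per window, and the number of replicates called enriched was deposited as a whole-number score. Counts in listed windows are not a library's depth, which is unknown here.

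Members and comparison lists were chosen with earlier results of these data known. A gene was listed with at least 1 window, and windows of several genes counted for each. Of windows in both G3BP1 sets the entry with up to 2 replicates was kept. Differences were fitted with limma 3.58.1 in R 4.3.3, two-sided and unpaired, on the lowest and highest replicate of 1 shared window per gene, over all genes with Benjamini-Hochberg adjustment at 0.05; the fit was tested on simulated data. An exact permutation test of 2 against 2 cannot go below 0.333. Shares have exact Clopper-Pearson 95% intervals. Genes were named by a rule: per list the 8 with most windows and the 5 highest windows, per comparison the 5 highest and 5 lowest differences, and those in 1 list alone (the 6 with most windows where over 15). The text names fewer than the rule allows where values repeat, and CDC5L splice-site windows and the genes without cytoplasm windows were chosen after their values were seen. The values of 1 gene are not reported here, and it is drawn in no figure; counts over the genes include it. Symbols are those of the lists; RefSeq tables matched 52 of 54 genes and held a promoter entry for 44. Alternatives were a q under 0.05, at least 20 IP and 10 input reads, single-gene windows, at least 2 windows, lists of equal length, other window weights, a variance trend, means over windows, all windows and removal of the median difference.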

Additional observations from a re-analysis of the deposited data

How the results depend on the processing

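Of 111 results recomputed under another setting, 74 stayed close to their value (a count within 1.5 times, a share within its exact interval) and 37 moved, each given here; the causes were not tested. With a q under 0.05, 9 genes were listed in the arsenic cytoplasm, 4 in the untreated cytoplasm and 6 with G3BP1, against 26, 14 and 12. With at least 20 IP and 10 input reads, 9 were listed in the untreated cytoplasm, 34 in arsenic whole cells (against 52), 14 with CAPRIN (against 39) and 7 with G3BP1. With at least 2 windows per gene, 16 were listed in the arsenic and 9 in the untreated cytoplasm. The G3BP1 entries with up to 2 replicates held 3 genes, beside 8.05% of all genes. Genes in 1 list alone numbered 6 between the whole cell lists at a q under 0.05 and 6 at the read minimum (against 1), and 5 and 12 between the cytoplasm lists (against 20). They numbered 16 between untreated cytoplasm and whole cells at equal list length (against 39), and 40 between arsenic cytoplasm and whole cells at a q under 0.05 (against 26). Between CAPRIN and G3BP1 they numbered 10 at equal length and 7 at the read minimum (against 27). For these counts of genes in 1 list alone, shares over all genes were not computed. The share of windows at splice sites was 50.3% at a q under 0.05, 10.7% at the read minimum and 21.2% with 1 window per gene in arsenic whole cells (against 40.5%), and 41.1%, 12.4% and 24.5% in untreated whole cells (against 35.0%). The 3′ UTR share in the untreated cytoplasm was 78.6% at the read minimum, 54.7% weighted by IP count, 71.4% with 1 window per gene and 71.0% without PRPF8 (against 38.7%). The coding share with CAPRIN was 50.04% weighted by IP count, 35.9% with 1 window per gene and 58.9% without PRPF8 (against 65.9%), and with G3BP1 77.3% at the read minimum and 66.7% in the entries with up to 2 replicates (against 90.1%). Of limma calls, the cytoplasm comparison of arsenic with untreated gave 1 with a variance trend and 1 at a q under 0.05 (against 0), and CAPRIN against G3BP1 gave 2 with the median difference removed and 5 in the entries with up to 3 replicates (against 1). Settings without PRPF8 and the fits on the entries with up to 3 replicates, as well as the coding share in the entries with up to 2, were chosen after seeing the data. No core spliceosome gene was left for CAPRIN against G3BP1 at a q under 0.05 or at the read minimum, nor for the arsenic effect between fractions at a q under 0.05. No paired analysis was possible because the lists give the lowest and highest replicate without replicate numbers, and for the same reason no replicate was left out. Few reads limit the precision: listed windows held a median of 2 to 14 input reads.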
